A study of Homo sapiens with 6 samples.

Results

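The genes of polyamine synthesis and catabolism were measured by mRNA sequencing in MDA-MB-453, an established human breast cancer cell line, after 5 days of culture with 100 nM 25(OH)D, the main circulating vitamin D metabolite, or with alcohol as its solvent. Each group had 3 libraries, from 1 cell line, and all cells carried the same genetic background with no knockdown or transgene. The comparison asks which genes respond to 25(OH)D in these cells. The 10 genes were taken from the deposited table by name, ODC1, AMD1, SRM and SMS for synthesis, SAT1, SMOX and PAOX for catabolism, and OAZ1, OAZ2 and AZIN1 for the antizyme system. All 10 are among the 33451 genes listed, and all 10 passed the filter on low counts that left 18183 genes for testing. Positions are those of the GRCh38 exons given in the deposited table.

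Polyamines are small, positively charged molecules that bind nucleic acids and that dividing cells need in quantity. Ornithine is decarboxylated to putrescine, and aminopropyl groups taken from decarboxylated S-adenosylmethionine are then added in turn to give spermidine and spermine. Acetylation and oxidation lead back toward putrescine, and antizyme proteins, whose own translation rises with polyamines, bind ornithine decarboxylase and deliver it to the proteasome. Much of this control acts on translation and protein turnover, which counts of mRNA do not measure. ODC1 is a well-known target of MYC, and ornithine decarboxylase activity is often raised in breast and other tumours.

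The 4 genes of synthesis passed the test, as did SAT1, PAOX and SMOX of catabolism, and the antizyme genes did not. SMOX was in the test through its 25(OH)D libraries alone, so that a rise was the call open to it. ODC1 fell by 28.3%, SMS fell by 18.4% and SRM fell by 13.9%, while AMD1, the remaining gene of synthesis, rose by 14.0%. SAT1 rose by 16.9%, PAOX by 55.7% with groups that overlapped, and SMOX rose from 9 counts in all control libraries together to 58. An adjusted p under 0.05 was reached by 7 of 10 genes, where 33.8% of all genes tested reached it. That count rests in part on single libraries. Without 25(OH)D replicate 1 it was 3 of 10 (ODC1, SMS and SMOX) beside 28.3% of all genes, and without control replicate 2 it was 4 of 10 beside 27.3%. In the test of all libraries 4 rose, where 17.3% of all genes did, and 3 fell, where 16.5% did. With SMOX set aside, 6 of 9 were called, 3 of them higher and 3 lower. Without SMOX, 2 of 9 were called when 25(OH)D replicate 1 was left out, beside 28.3% of all genes. When control replicate 2 was left out it was 3 of 9, beside 27.3%. In 6 of the 10 the groups did not overlap in CPM, which was true of 45.7% of all genes tested. These 6 include SMOX, which was tested through its 25(OH)D libraries alone. The median size of the log2 change, regardless of direction, was 0.22 in the 10 genes and 0.23 over all genes tested. The signed median was 0.0041 in the 10 genes and -0.01 over all.

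Sequences around these genes are shown where they carry known control or hold a motif searched for here. The first set holds 2 promoter windows, each running from 250 bases before to 50 after a transcription start in RefSeq, with CACGTG in capitals, the letters that MYC and its relatives bind. RefSeq windows were found for 7 of the 10 genes. The letters, which read the same on both strands, occurred in the window of SRM at chr1:11059969-11060268 (GRCh38.p14, minus strand) and in the window of a second ODC1 start at chr2:10447963-10448262 (minus strand).
SRM promoter: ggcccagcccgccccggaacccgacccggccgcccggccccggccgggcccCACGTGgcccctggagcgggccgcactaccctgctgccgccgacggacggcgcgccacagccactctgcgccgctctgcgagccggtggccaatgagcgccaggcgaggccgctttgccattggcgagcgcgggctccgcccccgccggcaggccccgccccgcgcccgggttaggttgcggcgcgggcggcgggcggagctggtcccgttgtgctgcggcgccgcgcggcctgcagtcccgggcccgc
ODC1 second promoter: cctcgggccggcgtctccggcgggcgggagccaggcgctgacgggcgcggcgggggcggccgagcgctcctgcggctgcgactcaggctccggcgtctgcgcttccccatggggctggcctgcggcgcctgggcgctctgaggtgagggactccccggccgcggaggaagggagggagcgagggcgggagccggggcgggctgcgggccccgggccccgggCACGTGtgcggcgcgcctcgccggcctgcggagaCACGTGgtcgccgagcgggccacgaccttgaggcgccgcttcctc
In SRM the match began at position -199, and in ODC1 there were matches at -29 and 5, counting the start as 0. SMS, AMD1, SAT1, OAZ1 and OAZ2 had no match, nor did the window of the other ODC1 start. The letters were thus found in 2 of 7 genes, and in 8.78% of the 27305 genes with a window. The direct repeat that the vitamin D receptor binds (the DR3 motif, searched on both strands) was in 0 of 7, and in 0.0842% of all. These matches describe letters in these windows and are no measure of binding.

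The second set holds short sites of translational control, read from transcripts of GENCODE 29 at GRCh38. In AMD1 the capitals mark the short reading frame before the coding sequence, at chr6:110874792-110874821 on the plus strand in exon 1. In OAZ1, at chr19:2271428-2271457 on the plus strand, and in OAZ2, at chr15:64691501-64691530 on the minus strand, the capitals mark the last codon read before the stop and the stop itself, where ribosomes shift frame when polyamines are abundant.
AMD1 upstream frame: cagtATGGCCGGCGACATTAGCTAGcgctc
OAZ1 frameshift site: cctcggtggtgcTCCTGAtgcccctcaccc
OAZ2 frameshift site: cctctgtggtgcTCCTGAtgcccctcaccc
The coding models of both antizymes in the annotation leave out a base at this site, so it was read from a transcript that keeps it.

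The libraries held between 33268860 and 40928176 counts. CPM values below set each count against the size of its library, adjusted by TMM factors that align the bulk of genes, and a count of 3 was worth between 0.0733 and 0.0902 CPM before that adjustment. Mitochondrial genes took 7.85% to 7.99% of control counts and 8.89% to 9.24% of 25(OH)D counts. All 9 luminal epithelial markers passed the filter, with a summed level of 4193 to 4338 CPM in control and 4502 to 4527 CPM in 25(OH)D libraries, and 6 of them rose and 2 fell. Markers of blood and vessel cells, of which 2 of 6 passed the filter, summed to 4.44 to 6.26 CPM and to 13.6 to 19.99 CPM. CD68, a lysosomal protein, made up most of that sum and rose, while CD3E of T cells was at 0 in 5 libraries and PTPRC of leukocytes had at most 6 counts. The fibroblast markers, of which 1 of 4 passed the filter, summed to 36.1 to 38.6 CPM in control and 32.0 to 34.4 CPM in 25(OH)D libraries, nearly all of it COL1A1, which fell. PDGFRB and DCN had at most 6 counts in any library, and COL3A1 was not among the genes listed. Basal markers, of which 2 of 3 passed the filter, stayed at or below 1.17 CPM in sum in every library. TP63 fell, from 12, 26 and 19 counts to 3, 2 and 2, and passed the filter through its control libraries alone. KRT5 had 4, 2 and 10 counts in control and 14, 18 and 3 in 25(OH)D libraries and was not called, and KRT14, which was not tested, had 4, 6 and 1 against 24, 8 and 12. The part of these shifts in the changes below was not tested. In a bulk sample of 1 cell line, fewer cells in a given state and less RNA per cell cannot be told apart.

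ODC1, ornithine decarboxylase, makes putrescine and is the entry to the pathway, at chr2:10439968-10448504 on the minus strand. Its level was 36.4, 33.9 and 33.5 CPM in the control libraries and 26.7, 24.5 and 23.3 CPM in the 25(OH)D libraries. Every 25(OH)D library was below every control library. The means were 34.6 ± 1.54 and 24.8 ± 1.71 CPM (SD, n = 3 each). The log2 fold change was -0.48 (SE 0.069, 95% interval -0.63 to -0.33), with an adjusted p of 8.42e-05 by the quasi-likelihood test of edgeR with Benjamini-Hochberg adjustment over all genes tested, as for every adjusted p below. The size of this change exceeded that of 77.3% of all genes tested. The call held in all 14 alternatives of normalization, filter, test and omitted library.

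SMS, spermine synthase, adds the second aminopropyl group and lies on chrX:21940573-21994835 on the plus strand. It was measured at 129, 124 and 126 CPM in control and 105, 105 and 99.1 CPM in 25(OH)D libraries. The groups did not overlap, with means of 126 ± 2.77 and 103 ± 3.45 CPM (SD, n = 3 each). The log2 fold change was -0.29 (SE 0.044) with an adjusted p of 0.000114 in edgeR. This call too held in all 14 alternatives. Of the 100-base stretches in its transcripts, 5.63% also occur in other genes, most often in AL354714.2, so that some of its reads cannot be placed with certainty.

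SRM, spermidine synthase, adds the first aminopropyl group and lies on chr1:11054584-11060024 on the minus strand. Control libraries had 30.3, 31.7 and 29.7 CPM and 25(OH)D libraries had 25.7, 27.2 and 26.1 CPM. All 25(OH)D values lay below all control values, with means of 30.6 ± 1.01 and 26.3 ± 0.815 CPM (SD, n = 3 each). The log2 fold change was -0.22 (SE 0.063) with an adjusted p of 0.0161 in edgeR. The call was lost in 2 of 14 alternatives, with an adjusted p of 0.0667 without 25(OH)D replicate 1 and of 0.0831 without control replicate 2 in edgeR.

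AMD1, adenosylmethionine decarboxylase, supplies the aminopropyl donor for both synthases and lies on chr6:110874770-110895713 on the plus strand. Unlike the other genes of synthesis it was higher with 25(OH)D, at 33.3, 33.3 and 33.5 CPM in control and 40.3, 36.6 and 37.3 CPM in 25(OH)D libraries. The groups were apart, and the control libraries lay within a far narrower band than the 25(OH)D libraries, at 33.4 ± 0.117 against 38.1 ± 1.98 CPM (SD, n = 3 each). The log2 fold change was 0.19 (SE 0.060) with an adjusted p of 0.0248 in edgeR. This call was the least stable of the 4 genes of synthesis, since 7 of 14 alternatives lost it. Scaling by library totals alone gave 0.15 (adjusted p = 0.0767 in edgeR), and leaving out 25(OH)D replicate 1, control replicate 1 or control replicate 2 gave adjusted p values of 0.105, 0.0527 and 0.0649 in edgeR.

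**Figure D1:**
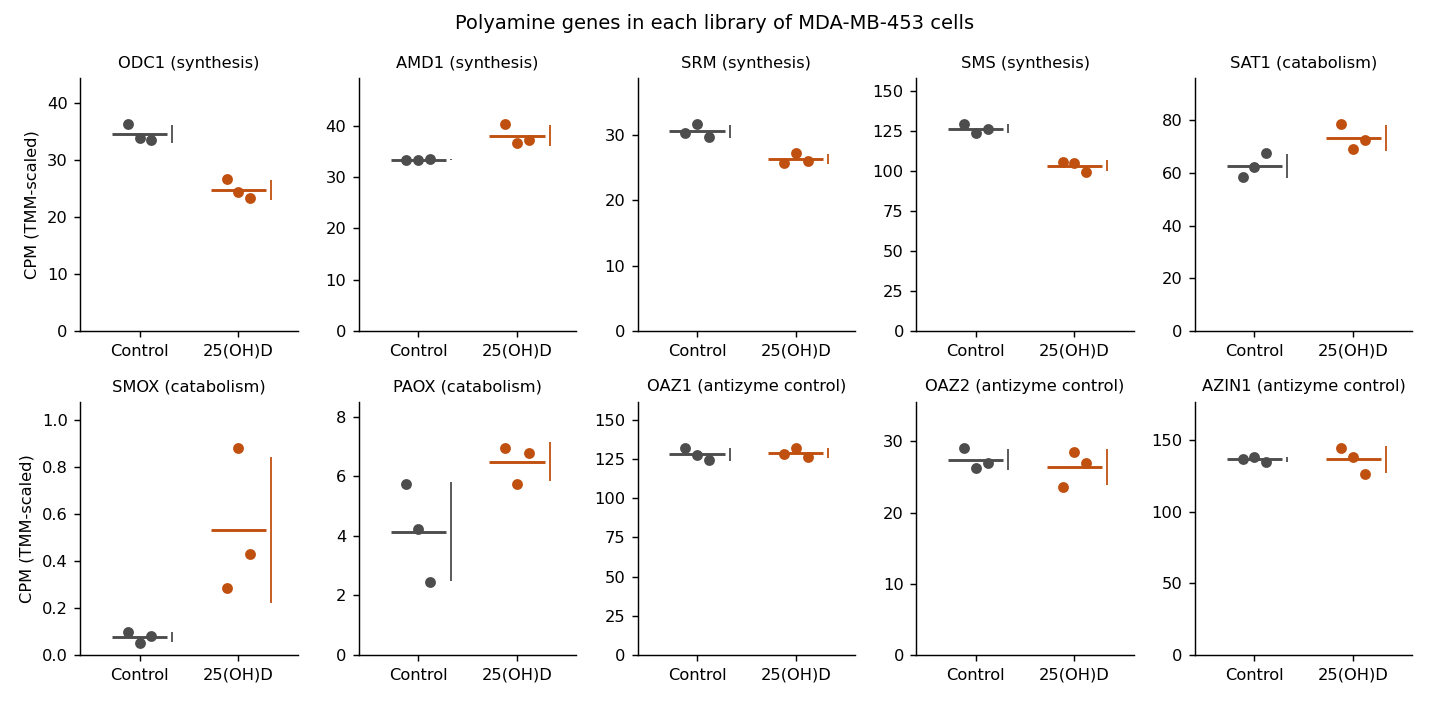
Each panel shows 1 polyamine gene, with TMM-scaled CPM on a y axis from 0, a point for each of 3 control and 3 25(OH)D libraries, a line at the mean and a vertical bar of 1 SD on either side of it. The groups are apart for ODC1, AMD1, SRM, SMS, SAT1 and SMOX and overlap for PAOX, OAZ1, OAZ2 and AZIN1.

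In catabolism, SAT1, spermidine and spermine acetyltransferase, marks polyamines for oxidation or export and lies on chrX:23783173-23786226 on the plus strand. It stood at 58.4, 62.2 and 67.4 CPM in control and 78.5, 68.9 and 72.3 CPM in 25(OH)D libraries. The lowest 25(OH)D library was just above the highest control library. The means were 62.7 ± 4.55 and 73.2 ± 4.88 CPM (SD, n = 3 each), and the log2 fold change was 0.23 (SE 0.064) with an adjusted p of 0.0134 in edgeR. Of 14 alternatives, 4 lost the call, among them the omission of 25(OH)D replicate 1 (adjusted p = 0.0694 in edgeR) or of control replicate 1 (0.0546), the highest and the lowest library of all.

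SMOX, spermine oxidase, turns spermine directly into spermidine and lies on chr20:4120980-4187747 on the plus strand. It was close to absent from control cells, with 4, 2 and 3 counts, and had 10, 34 and 14 counts in 25(OH)D libraries. All 25(OH)D values were above all control values, but replicate 2 alone held 34 of the 58 counts. On pooled counts, with library sizes taken into account, the ratio was 6.85, with a 95% interval of 3.37 to 15.7 that covers counting error only. The fitted log2 fold change was 2.75 (SE 0.61) with an adjusted p of 0.00293 in edgeR, and such a fitted value depends on the small count the model adds. Without 25(OH)D replicate 2 it was 2.16 (adjusted p = 0.0336 in edgeR), and on log2(RPKM + 1), where low genes are damped, it was 0.20 (adjusted p = 0.0589 in limma). SMOX passed the filter only through its 25(OH)D libraries. It was the 1 gene of the 10 to move by more than 1 on the log2 scale at an unadjusted p under 0.05, limits that 6.65% of all genes tested passed.

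PAOX, polyamine oxidase, cleaves the acetylated polyamines that SAT1 makes and lies on chr10:133379234-133391694 on the plus strand. Its counts were 240, 160 and 90 in control and 245, 221 and 221 in 25(OH)D libraries. In CPM these were 5.76, 4.23 and 2.44 against 6.96, 5.74 and 6.78. The highest control library lay just above the lowest 25(OH)D library, and the spread in control was the larger, at 4.14 ± 1.66 against 6.49 ± 0.657 CPM (SD, n = 3 each). Its log2 fold change was 0.64 (SE 0.22, 95% interval 0.16 to 1.12) with an adjusted p of 0.0399 in edgeR. The call was lost in 7 of 14 alternatives. Without control replicate 3, the lowest library, the log2 fold change was 0.38 (adjusted p = 0.0970 in edgeR), and without control replicate 1, the highest of that group, it was 0.96 (adjusted p = 0.00207 in edgeR). Without 25(OH)D replicate 1, 25(OH)D replicate 3 or control replicate 2 the adjusted p was 0.115, 0.0729 and 0.0924 in edgeR. PAOX shares 158 bases of exon with RP11-108K14.8 on the same strand, a gene whose own log2 fold change was -0.15.

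The antizyme genes, which act on ornithine decarboxylase protein, did not pass the test. OAZ1, antizyme 1, lies on chr19:2269509-2273490 on the plus strand and had 132, 128 and 124 CPM in control and 128, 132 and 126 CPM in 25(OH)D libraries. The values of the groups were interleaved. Its log2 fold change of 0.01 had a 95% interval of -0.08 to 0.10 (adjusted p = 0.895 in edgeR). OAZ1 shares 236 bases with JSRP1 on the other strand and 220 with LLfos-48D6.2 on the same strand. Of its 100-base stretches, 3.09% also occur in other genes, most often in AC005258.1.

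OAZ2, antizyme 2, has the same action on ornithine decarboxylase and lies on chr15:64687573-64703281 on the minus strand. It had 29.1, 26.3 and 26.9 CPM in control and 23.6, 28.6 and 26.9 CPM in 25(OH)D libraries, again with groups that overlapped. The log2 fold change was -0.06 with an interval of -0.23 to 0.11 (adjusted p = 0.621 in edgeR). AZIN1, antizyme inhibitor 1, resembles ornithine decarboxylase without its activity and binds antizyme in its place. It stood at 137, 138 and 135 CPM in control and 145, 139 and 127 CPM in 25(OH)D libraries, where 25(OH)D values fell on both sides of the control values. Its log2 fold change of -0.0010 had an interval of -0.11 to 0.11 (adjusted p = 0.991 in edgeR). Of these 3 genes, 0 were called by edgeR, 0 had an unadjusted p under 0.05, and none was called in any of the 14 alternatives, DESeq2 and limma included. Their intervals leave out changes as large as that of ODC1, but the interval of OAZ2 holds the change called in SRM (-0.22).

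**Figure D2:**
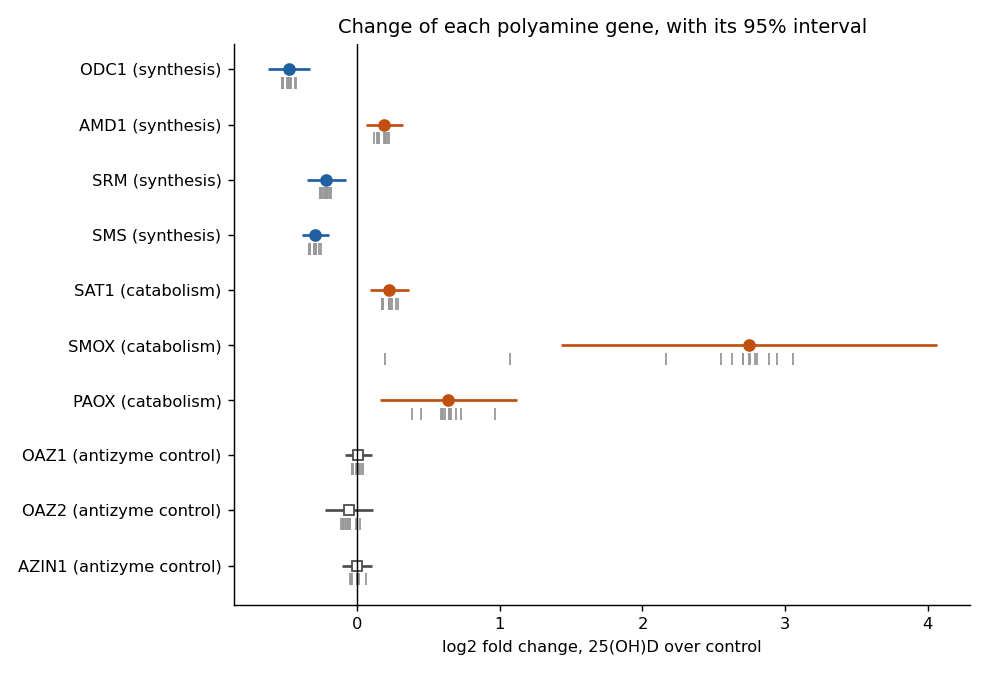
Log2 fold changes of 25(OH)D over control for the 10 polyamine genes are drawn with 95% intervals, filled circles for an adjusted p under 0.05 and open squares for the others, and the grey ticks below each gene give its value in each of 14 alternatives. ODC1, SRM and SMS lie left of 0, the antizyme genes lie at 0, and SMOX stands far to the right with the widest interval and with ticks at 0.20 and 1.07 from the RPKM scales.

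Levels between genes were compared per length, as the deposited RPKM values (each count divided by gene length and library total). In control cells SMS was highest, at 59.4 ± 1.36 RPKM (SD, n = 3), followed by OAZ1 at 37.8 ± 1.32 and SAT1 at 25.5 ± 1.74. AZIN1 had 21.6 ± 0.355, SRM 16.4 ± 0.598 and ODC1 11.8 ± 0.565 RPKM. Lowest were AMD1 at 4.82 ± 0.00861, OAZ2 at 3.63 ± 0.204, PAOX at 1.85 ± 0.747 and SMOX at 0.0264 ± 0.00756 RPKM. The order was the same with 25(OH)D, and in both groups no gene overlapped its neighbour in the order over the libraries. With 25(OH)D the distance from ODC1 to AMD1 narrowed, to 8.24 ± 0.564 against 5.33 ± 0.260 RPKM. The order itself rests on the gene length used, which in the deposited table sums all exons. Per longest coding transcript OAZ1 was highest, at 113 in control against 69.8 for SMS and 59.7 for SAT1, and OAZ2, at 14.4, was above ODC1 at 13.2 and AMD1 at 9.85.

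**Figure D3:**
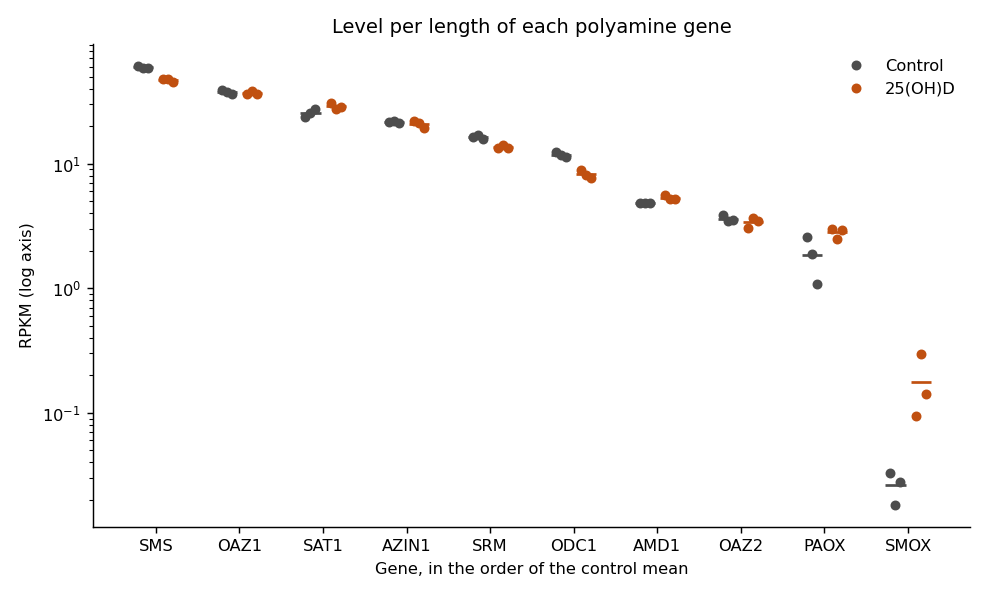
RPKM on a log axis is plotted for each polyamine gene in the order of the control mean, with a point for each of 3 control and 3 25(OH)D libraries and a line at each group mean. The genes span from 59.4 for SMS down to 0.0264 for SMOX in control, and the order is the same in both groups.

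Summed per role, the 4 genes of synthesis had 94.4, 91.8 and 90.9 RPKM in control and 75.6, 75.8 and 71.4 RPKM in 25(OH)D libraries, a sum that SMS dominates. The 3 genes of catabolism summed to 26.4, 27.3 and 28.4 RPKM in control and 34.0, 30.2 and 31.4 RPKM in 25(OH)D libraries, nearly all of it SAT1. Neither sum overlapped between the groups. The antizyme genes, in contrast, summed to 64.7, 63.3 and 61.2 RPKM and to 61.7, 63.3 and 58.7 RPKM, with overlap.

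Ratios within a library do not depend on the scaling between libraries. They were chosen after the values were seen and are given with no test. SAT1 over ODC1, the first enzyme of breakdown over the first of synthesis, was 1.91, 2.18 and 2.39 in control and 3.49, 3.35 and 3.68 in 25(OH)D libraries, a shift of 1.63-fold between the means. AMD1 over ODC1 went from 0.408 ± 0.0190 to 0.648 ± 0.0230 (SD, n = 3 each). OAZ1 over ODC1 went from 3.19 ± 0.0600 to 4.49 ± 0.306. In these 3 ratios the groups were apart, but all 3 have ODC1 as their denominator and so share its fall. OAZ1 itself had a log2 fold change of 0.01. SMS over SRM, the 2 synthases, was 3.63 ± 0.178 and 3.44 ± 0.140, and AZIN1 over OAZ1, the inhibitor over its antizyme, was 0.572 ± 0.0145 and 0.568 ± 0.0351, both with groups that overlapped.

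**Figure D4:**
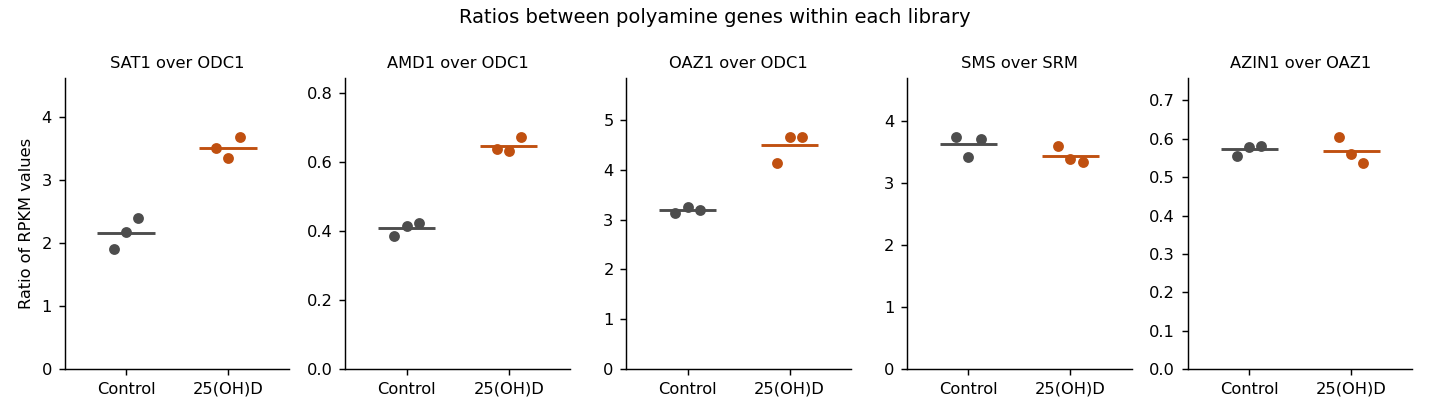
Ratios of RPKM values between pairs of polyamine genes are shown for each of 3 control and 3 25(OH)D libraries on y axes from 0, with a line at each group mean. SAT1, AMD1 and OAZ1 each stand higher over ODC1 in every 25(OH)D library, while SMS over SRM and AZIN1 over OAZ1 overlap between the groups.

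The genes whose values over the 6 libraries were most like those of ODC1, by root mean square difference in centred log2 CPM among 10756 genes with a symbol and at least 100 counts on average, were RPL13A (0.0279), MCM10 (0.0319) and SLC43A3 (0.0340). Their log2 fold changes were -0.48, -0.44 and -0.45. Nearest to SAT1 were ANKRA2 (0.0161), DENND1C (0.0263) and CASP4 (0.0300), with log2 fold changes of 0.21, 0.26 and 0.25. Both sets were picked by values that hold the difference between the groups, so the likeness in fold change follows from the choice.

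Around the pathway, 38 further genes were listed by function, of which 35 are in the table and 26 passed the filter. Of these 26, 7 rose and 1 fell, beside the same background of 17.3% and 16.5% of all genes tested. The list of S-adenosylmethionine supply and methionine salvage held most of the rises, with 5 of 11 genes higher and 0 lower, and a median log2 change of 0.09. S-adenosylmethionine is the source of the aminopropyl groups, but not every gene of the list supplies or salvages it. MAT2A, which makes S-adenosylmethionine outside the liver, had 9096, 8665 and 8505 counts in control and 17364, 20034 and 16087 in 25(OH)D libraries. The groups were far apart, at 226 ± 6.75 and 503 ± 15.7 CPM (SD, n = 3 each). This was a log2 fold change of 1.15 (SE 0.039) with an adjusted p of 1.98e-11 in edgeR. MAT2A shares 558 bases of exon with GGCX on the other strand, whose log2 fold change was 0.50. The other rises in this list were named after their values were seen. They include AHCY (0.32), which clears the S-adenosylhomocysteine left by methylation, and its relatives by name AHCYL2 (0.50) and AHCYL1 (0.32). The last was MRI1 (0.30), which acts in the salvage of the methylthioadenosine that both synthases release. MRI1 shares 1078 of its 3456 bases of exon with CTB-5E10.3 on the other strand, whose log2 fold change was 0.49. AHCY shares 139 of its 3894 bases with RP4-785G19.5 on the same strand, whose log2 fold change was 0.54. MTAP, also named after its value was seen, acts on methylthioadenosine first and had a log2 fold change of 0.05 (adjusted p = 0.778 in edgeR).

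For ornithine supply, 1 of 4 genes rose and 0 fell. OAT, ornithine aminotransferase of mitochondria, had 1013, 875 and 866 counts in control and 1360, 1604 and 1241 in 25(OH)D libraries, with no overlap. Its log2 fold change was 0.74 (SE 0.063, adjusted p = 4.70e-07 in edgeR). Of 4 transport genes, ATP13A2, which exports polyamines from lysosomes, rose by 0.36 on the log2 scale (SE 0.081, adjusted p = 0.00290 in edgeR), from 20.7 ± 1.52 to 26.7 ± 2.27 CPM (SD, n = 3 each). ATP13A2 shares 189 of its 5253 bases of exon with RP1-37C10.3 on the other strand, whose log2 fold change was 0.35. SLC3A2, a chain shared by several amino acid transporters and linked to polyamine export, had 6120, 5446 and 5621 counts in control and 3747, 3838 and 3338 in 25(OH)D libraries. It fell by 0.52 on the log2 scale (SE 0.044, adjusted p = 4.13e-07 in edgeR). MAT2A, OAT, ATP13A2 and SLC3A2 were called in all 14 alternatives.

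Spermidine is also the donor for hypusine, a modified residue of the translation factor EIF5A. DHPS, which starts it, had a log2 fold change of -0.04 (adjusted p = 0.585), DOHH, which completes it, of 0.03 (0.889) and EIF5A of -0.0043 (0.956), all in edgeR. EIF5A2 had at most 2 counts in a library and was not tested. In edgeR 0 of these 3 genes passed, 0 had an unadjusted p under 0.05, and none was called in any of the 14 alternatives. Among other polyamine enzymes and antizyme genes 0 of 4 passed in edgeR and 1, SAT2, had an unadjusted p under 0.05. SAT2, a relative of SAT1 named after its values were seen, had 242, 228 and 228 counts in control and 205, 158 and 150 in 25(OH)D libraries, with a log2 fold change of -0.31 (adjusted p = 0.113 in edgeR). It was called in 1 of 14 alternatives, without 25(OH)D replicate 1 (log2 fold change -0.46, adjusted p = 0.0275 in edgeR), and the other 3 in none.

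**Figure D5:**
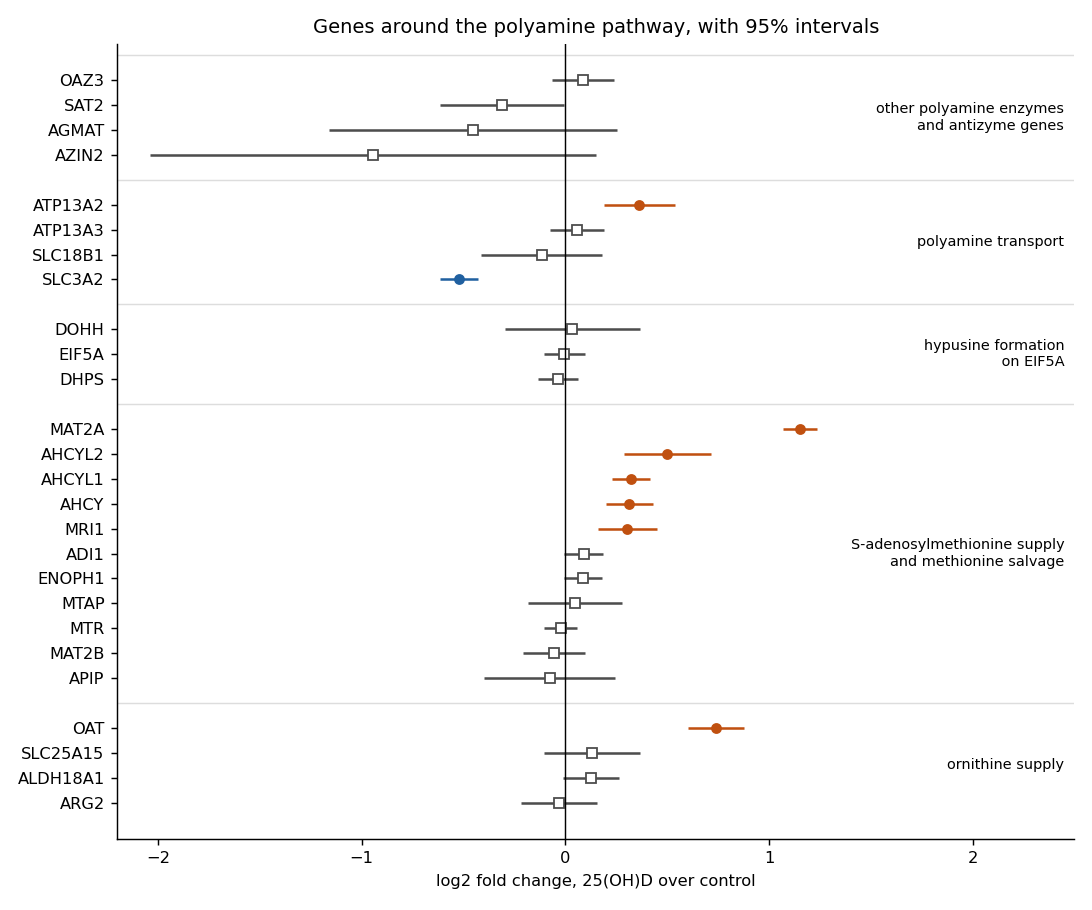
Log2 fold changes of 25(OH)D over control with 95% intervals are drawn for the 26 tested genes around the pathway, grouped by list, with filled circles for an adjusted p under 0.05 and open squares for the others. MAT2A at 1.15 and OAT at 0.74 lie farthest right among the called genes, SLC3A2 at -0.52 is the 1 called gene left of 0, and AZIN2, at low counts, has the widest interval.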

How the data were processed

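Libraries were prepared with a stranded mRNA kit from MDA-MB-453 cells and sequenced paired-end, and groups and replicate numbers came from the sample labels. The authors deposited a table of raw counts, reads assigned to each gene and not normalized, made against GRCh38; the submitters' notes name Trimmomatic 0.36, Subread 1.5.1 and featureCounts. The strand setting and the annotation release are not given in the sources used here. The authors also deposited RPKM values, each equal to the count divided by gene length and library total (largest relative difference 2.23e-13).

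The main test was the quasi-likelihood test of edgeR 4.0.16 in R 4.3.3 on counts, with TMM factors, the default low-count filter (minimum count 10), the 2 groups as the only term and Benjamini-Hochberg adjustment over 18183 genes. Standard errors were derived from the F statistic, and p-values measure the spread between libraries, which the paper calls biological replicates. An exact permutation test of 3 against 3 cannot go below 0.1. On simulated counts for 17930 genes the test recovered 91 of 100 genes changed by 1 on the log2 scale and 61 of 100 changed by 0.5, with 5 false calls. Every gene was simulated with the same dispersion, and far fewer genes were changed than were called in the data. Smaller changes were not simulated, so these rates need not hold for the libraries here. Alternatives were other scaling factors, no filter, DESeq2 1.42.0, limma 3.58.1 on log2(RPKM + 1) and log2(RPKM + 0.1), the replicate number as a block, and omission of each library. A length of the longest coding transcript was added after seeing the data. No pair of replicates agreed within sampling noise (chi-square per gene 4.01 to 12.1). Named were all 10 polyamine genes, in each list of genes around the pathway the largest rise and the largest fall with an adjusted p under 0.05 (every gene of a list of 4 or fewer), and the 3 genes most like ODC1 and SAT1. Other genes of these lists were named after their values were seen, and cell type markers were not under the rule. The genes and lists were chosen with earlier results of these data known. Promoter windows are from RefSeq (GRCh38.p14) and transcripts from GENCODE 29.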

Additional observations from a re-analysis of the deposited data

How the results depend on the processing

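Over the 14 alternatives, the 7 polyamine genes called kept their direction, and ODC1 and SMS kept their call in each. The count of polyamine genes called was 4 with limma on log2(RPKM + 0.1) and 3 with limma on log2(RPKM + 1), against 7 in the main test. Those called higher were 2 with library totals alone, 1 on log2(RPKM + 0.1) and 0 on log2(RPKM + 1), where 0 also passed the limits on fold and unadjusted p. A rise was the call open to SMOX. With SMOX set aside, those called higher in these 3 settings were 1, 0 and 0, and those called in either direction were 4, 3 and 3. Leaving out 1 library gave between 3 and 7 genes called and between 1 and 4 called higher, with 3 without 25(OH)D replicate 1 and 4 without control replicate 2. With SMOX set aside, 0 were called higher without 25(OH)D replicate 1 and 1 without control replicate 2. The genes around the pathway called lower numbered 1 to 2 when a library was left out. With fewer libraries the test has fewer degrees of freedom, though without 25(OH)D replicate 2 the count of polyamine genes called stayed at 7. The cause of the losses, in these and the other settings, was not tested. Library totals alone moved the median log2 change of all genes by -0.04.

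The replicate numbers did not pair the libraries, since the deviations of same-numbered libraries from their group means correlated at -0.0721, -0.0120 and -0.0460. With the number as a replicate block, 7 polyamine genes were called, 4 higher and 3 lower, 5953 of all genes in place of 6142, and 8 of the genes around the pathway. The block changed no call among the 10 genes. Depth limits SMOX, with 2 to 4 counts in control libraries, and the length used for each gene limits the comparison of levels between genes.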
